A study of Mus musculus with 4 samples.

Results

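The genes described are the suppressors of cytokine signalling (Socs1, Socs2, Socs3, Socs4, Socs5, Socs7 and Cish) and the STAT5 factors (Stat5a and Stat5b), chosen by name. They comprised 9 of the 27597 genes on the array and were measured by 14 of its 41174 non-control probes. RNA of 4 mouse CD4+ T cell samples, 1 array per group, was hybridised to 1-colour Agilent expression arrays, all on 1 slide in 1 scan. The cells came from spleen and lymph nodes of BALB/c mice, and the labels give neither the age of the mice nor whether animals were pooled. The si-Eos-labelled library was made from CD4+CD25+ natural regulatory T cells (Treg) transduced with a lentivirus carrying a short hairpin RNA against Eos and a GFP reporter. These cells spent 60 h in medium containing human IL-2 before GFP+ cells were sorted. The si-RL-labelled library was made in the same way with a hairpin against Renilla luciferase, the control. Treg (CD4+CD25+) and naive T cells (CD4+CD25-CD62L-high) were freshly isolated and carried no hairpin. The hairpin libraries thus differ from Treg by transduction, culture, IL-2 and the GFP sort together, and these cannot be told apart.

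STAT5a and STAT5b are the transcription factors that the IL-2 receptor activates through the kinases JAK1 and JAK3. Cish, Socs1, Socs2 and Socs3 are known as genes that such factors switch on, and their proteins then bind the receptor or the kinase and damp the signal, a negative feedback loop. In Treg, which depend on IL-2 from other cells, this pathway maintains Foxp3, the transcription factor that defines them.

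The hairpin labels were checked first on the targeted gene. Ikzf4, which encodes Eos, had a processed signal of 249 in the si-Eos-labelled library, 107 in the si-RL-labelled library, 363 in Treg and 192 in naive T cells on its brightest probe. Its scaled level was higher in the si-Eos-labelled library than in the si-RL-labelled library on all 3 of its probes, by 0.93, 1.96 and 1.19 on the log2 scale. The targeted gene thus goes against the labels, every hairpin library is named here by its label only, and with the labels exchanged every difference between them would turn its sign. Foxp3 had a signal of 2644 in the si-Eos-labelled library, 110 in the si-RL-labelled library, 1778 in Treg and 64.4 in naive T cells. Among 6 Treg markers Tnfrsf18 was the brightest, with scaled levels of 237, 109, 81.7 and 24.1 in the same order of libraries, and the other 5 summed to 85.0, 10.5, 65.2 and 3.27. Of the 6, 0 were 2-fold higher and 4 lower in the si-RL-labelled library against Treg (median -2.86 on the log2 scale), and 2 were higher and 0 lower in the si-Eos-labelled library against Treg (median 0.53). The summed scaled level of 6 naive T cell markers was 50.9, 145, 64.5 and 186. Without Lef1, the brightest, it was 39.8, 63.4, 48.7 and 117. Between the hairpin libraries 4 of these 6 were 2-fold lower and 1, Ccr7, higher in the si-Eos-labelled library. All 4 T cell markers on the array were well above background in every library and summed to between 105 and 149. Between 5 and 6 of 6 B cell markers, 2 and 4 of 6 myeloid markers and 3 and 6 of 6 NK or CD8 T cell markers were well above background in a library. They summed to 1.16 to 2.78, 0.793 to 1.23 and 2.16 to 5.04 in that order. Of the myeloid markers, Fcer1g and Cd68 were well above background on every array and Csf3r on none. Their part in the results was not tested. In such bulk samples, fewer cells of a type and less RNA per cell cannot be told apart.

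Each value below is the processed signal, or the scaled level, which is that signal divided by the array's 75th percentile over all non-control probes. Differences are between log2 scaled levels, and the ± is the scanner's error of both spots combined, a technical error only. With 1 array per group no difference has a replicate check, so no test was run, and a difference was counted where the arrays were at least 2-fold apart. Every probe of the 9 genes was well above background on all 4 arrays, except the second probe of Socs2 in naive T cells.

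Cish, Socs1 and Socs2 formed the group with the widest range of levels on the brightest probe, each highest in the si-Eos-labelled library, next in the si-RL-labelled library, then in Treg, and lowest in naive T cells. Cish encodes CIS, which binds activated cytokine receptors, the IL-2 receptor among them, and is a known STAT5 target. Its probe at chr9:107159966-107160025 (mm8) had a signal of 23947 in the si-Eos-labelled library, 15044 in the si-RL-labelled library, 8885 in Treg and 1035 in naive T cells. The scaled levels were 74.8, 57.4, 22.7 and 3.42 in that order, a span of 21.9-fold. The step between the hairpin libraries, 0.38 on the log2 scale, was within 2 scanner errors, and the steps below it were not. Relative to naive T cells, Cish was 21.9-fold higher in the si-Eos-labelled library, 16.8-fold higher in the si-RL-labelled library and 6.63-fold higher in Treg, and these values share the naive T array.

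The promoter of Cish is shown beside those of Socs1, which had the same order of levels, and Socs3, which did not, because STAT5 is known to bind the letters TTCNNNGAA. These letters are the same on both strands, and matches are in capitals. The sequences are RefSeq's (build GRCm38.p6), written 5′ to 3′ on the gene's strand, and run over the 200 bases before the annotated start and the first 30 after it. The window of Cish lies at chr9:107296459-107296688 (plus strand), that of Socs1 at chr16:10785507-10785736 (minus strand) and that of Socs3 at chr11:117969337-117969566 (minus strand).
Cish: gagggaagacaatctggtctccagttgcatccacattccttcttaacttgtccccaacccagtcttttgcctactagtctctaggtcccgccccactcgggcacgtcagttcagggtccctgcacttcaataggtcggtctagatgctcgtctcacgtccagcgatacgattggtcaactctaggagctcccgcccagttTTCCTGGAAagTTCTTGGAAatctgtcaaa
Socs1: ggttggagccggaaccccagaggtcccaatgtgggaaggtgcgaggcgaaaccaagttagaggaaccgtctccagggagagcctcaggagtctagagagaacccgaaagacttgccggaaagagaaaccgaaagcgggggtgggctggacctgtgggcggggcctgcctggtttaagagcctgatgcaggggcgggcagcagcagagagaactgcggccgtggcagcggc
Socs3: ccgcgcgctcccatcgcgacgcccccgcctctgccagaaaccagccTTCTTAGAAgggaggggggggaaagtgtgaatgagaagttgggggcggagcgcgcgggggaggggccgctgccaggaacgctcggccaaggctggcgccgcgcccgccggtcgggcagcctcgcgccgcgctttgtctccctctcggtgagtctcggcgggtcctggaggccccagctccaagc
The window of Cish held 2 matches, TTCCTGGAA at bases 1 to 9 and TTCTTGGAA at bases 12 to 20 counted from the annotated start. That of Socs3 held 1, TTCTTAGAA, from base -154 to base -146, and that of Socs1 held none. Over all 32851 RefSeq windows of 300 bases (250 before and 50 after the start), 8.30% held the letters at least once and 0.457% at least 2 times. Of the 9 genes, 6 had windows in the table, 8 windows in all, and 2 of these windows held a match. Socs2, Socs5 and Socs7 had no window. A match is a description of letters, not evidence of binding.

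Socs1 encodes an inhibitor that blocks JAK kinases directly and is needed for Treg to keep their identity in mice. Its probe at chr16:10697436-10697495 (mm8) had a signal of 9501 in the si-Eos-labelled library, 5864 in the si-RL-labelled library, 4014 in Treg and 1627 in naive T cells. The scaled levels were 29.7, 22.4, 10.2 and 5.37 in that order, a span of 5.52-fold. All libraries stood more than 2 scanner errors from their neighbours, although the gap between the hairpin libraries, 0.41 ± 0.20, was only just over that limit.

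Socs2 encodes a suppressor best known for limiting growth hormone signalling through STAT5, and it is itself a STAT5 target. Its brightest probe, at chr10:94842120-94842179 (mm8), had a signal of 6958 in the si-Eos-labelled library, 3811 in the si-RL-labelled library, 2080 in Treg and 59.1 in naive T cells. The scaled levels were 21.7, 14.5, 5.31 and 0.195 in that order, a span of 111-fold and the widest of the 9 genes. Every step was more than 2 scanner errors. The second probe, 24.3 kb away and placed on Socs2 through the symbol of its transcript, had signals of 233, 182, 171 and 5.29 in the same order. The order of the libraries was thus the same on both probes, but naive T cells were not well above background on the second one. There the level was at least 24.7-fold higher in the si-Eos-labelled library, at least 23.6-fold higher in the si-RL-labelled library and at least 14.9-fold higher in Treg, each against naive T cells.

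**Figure D1:**
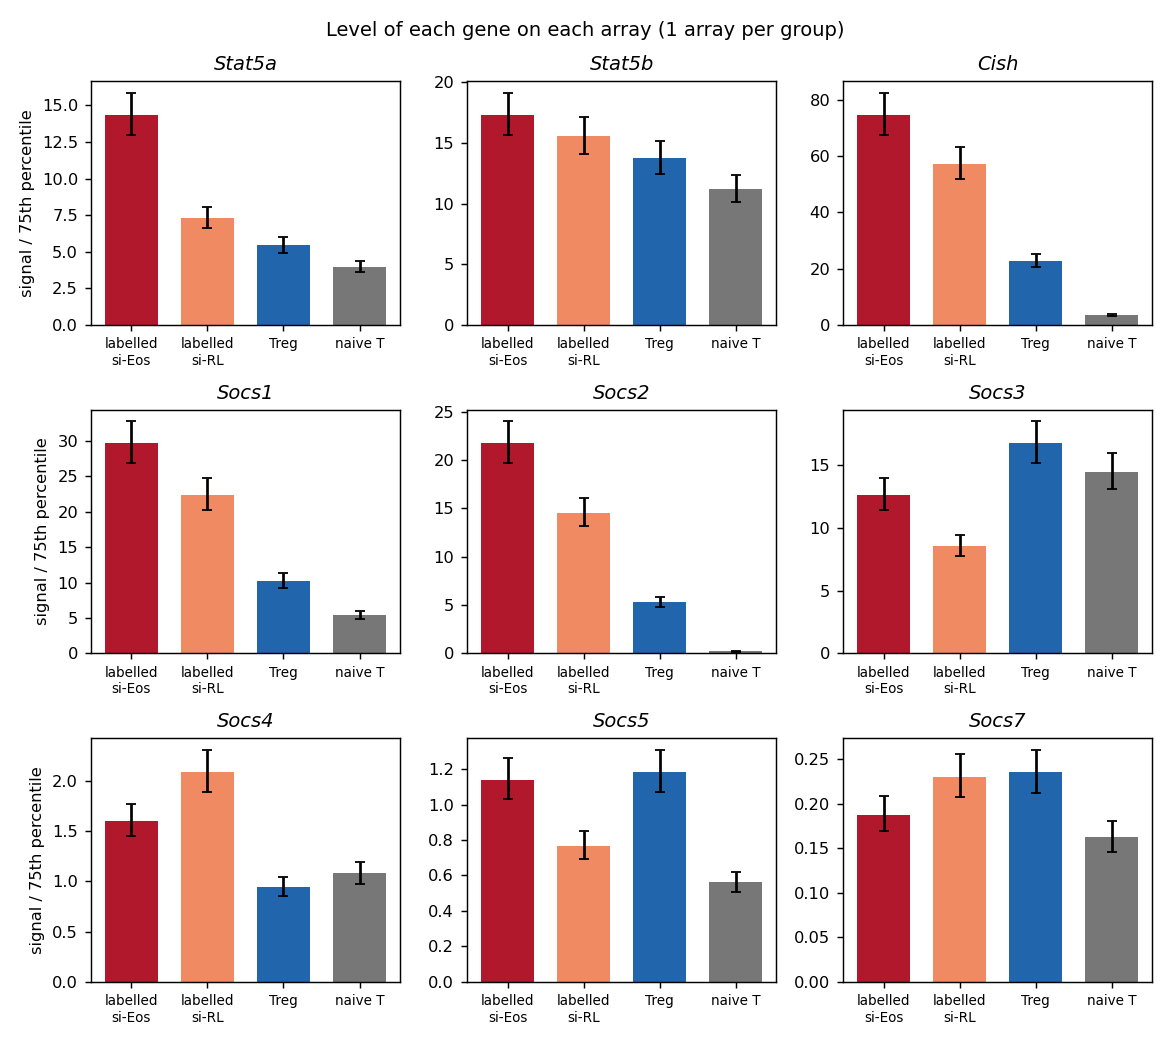
Scaled level of each of the 9 genes (processed signal divided by the array's 75th percentile, y axis from 0) on each of the 4 arrays, with bars for the si-Eos-labelled library, the si-RL-labelled library, Treg and naive T cells and error bars for the scanner's technical error. Cish, Socs1, Socs2 and both STAT5 genes fall in that order of libraries, while Socs3 is highest in Treg (16.8) and lowest in the si-RL-labelled library (8.55).

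Socs3 stood apart from these genes. It encodes the suppressor of signals that pass through gp130 and STAT3, such as those of IL-6. The probe at chr11:117782256-117782315 (mm8) had a signal of 4054 in the si-Eos-labelled library, 2241 in the si-RL-labelled library, 6574 in Treg and 4384 in naive T cells. The scaled levels were 12.7, 8.55, 16.8 and 14.5 in that order, a span of 1.96-fold. Treg was the highest and the si-RL-labelled library the lowest, and the neighbours Treg and naive T cells, and naive T cells and the si-Eos-labelled library, were within 2 scanner errors of each other.

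Socs4, Socs5 and Socs7 are the members with long N-terminal regions, and their link to cytokine receptors is less settled than that of the others. Socs5, which has been tied to the receptors for IL-4 and EGF, had a signal of 365 in the si-Eos-labelled library, 201 in the si-RL-labelled library, 465 in Treg and 170 in naive T cells (chr17:87045486-87045545, mm8). On the scaled level, 1.14, 0.767, 1.19 and 0.561 in that order, Treg and the si-Eos-labelled library were within the error of each other, and naive T cells were lowest. Socs7, which binds adaptor proteins and acts in insulin signalling in mice, had signals of 60.1, 60.4, 92.2 and 49.1 in the same order (chr11:97209512-97209571, mm8). Its scaled level spanned 1.45-fold, and no neighbours in its order differed by more than 2 scanner errors.

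Socs4, which is linked to EGF receptor turnover, had 3 probes. The brightest, at chr14:46212435-46212494 (mm8), had a signal of 513 in the si-Eos-labelled library, 549 in the si-RL-labelled library, 370 in Treg and 327 in naive T cells. The scaled levels were 1.60, 2.09, 0.943 and 1.08 in that order, so that the hairpin libraries were high and the freshly isolated cells low. Within each of these pairs the libraries were within 2 scanner errors. The other probes had the same order of libraries with smaller spans, 1.80-fold and 1.54-fold against 2.22-fold on the brightest.

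The STAT5 genes lie beside each other on chromosome 11 and encode closely related proteins. Stat5a had a signal of 4596 in the si-Eos-labelled library, 1911 in the si-RL-labelled library, 2137 in Treg and 1197 in naive T cells (chr11:100700920-100700979, mm8). The scaled levels were 14.4, 7.29, 5.45 and 3.95 in that order, and each step was more than 2 scanner errors. The step from Treg to the si-RL-labelled library, 0.42 ± 0.20, was only just over that limit. It ran from 0.02 to 0.75 under the alternatives, and the unscaled signal was higher in Treg. Stat5b, on its brightest probe, had signals of 5546, 4076, 5388 and 3384 in the same order (chr11:100603430-100604478, mm8). Its scaled levels of 17.3, 15.5, 13.7 and 11.2 followed the same order as those of Stat5a, but no step passed 2 scanner errors. A second Stat5b probe spanned 1.19-fold over the arrays. The third, 34.1 kb from the brightest and placed on Stat5b through the symbol of its transcript, went the other way. It had a signal of 60.4 in the si-Eos-labelled library, 84.0 in the si-RL-labelled library, 438 in Treg and 475 in naive T cells. On that probe both hairpin libraries were far below the freshly isolated cells, at -2.57 ± 0.21 for the si-Eos-labelled library and -1.80 ± 0.21 for the si-RL-labelled library against Treg on the log2 scale. Which exon or transcript each probe reads, and whether a probe of one STAT5 gene also binds the other's RNA, was not tested.

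**Figure D2:**
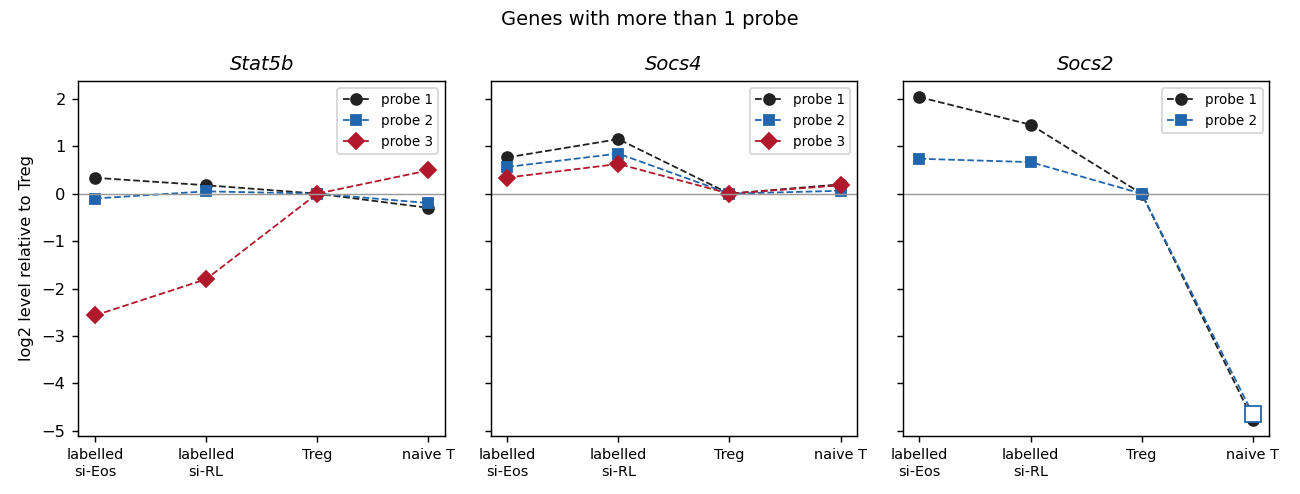
Log2 level relative to Treg (y axis) of every probe of Stat5b, Socs4 and Socs2 on the 4 arrays (x axis), with 1 line per probe and an open marker where the probe was not well above background. The probes of Socs4 and of Socs2 keep 1 order of libraries, whereas the third Stat5b probe lies at -2.57 and -1.80 in the libraries labelled si-Eos and si-RL, where the other Stat5b probes lie between -0.10 and 0.33.

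In Treg against naive T cells, the comparison that asks what sets regulatory cells apart from resting ones, 3 of the 9 genes stood 2-fold or more higher in Treg and 0 lower. Over all 17593 genes measured on both arrays, 5.51% passed that limit upwards in Treg and 2.04% downwards. Socs2 differed by 4.76 ± 0.21 on the log2 scale, and 9 genes, itself included (0.0512%), had a difference as high or higher. Cish differed by 2.73 ± 0.20, a value that 150 genes (0.853%) reached, and Socs5 by 1.08 ± 0.20. Socs1 lay just under the limit at 0.93 ± 0.20. Socs7 (0.54), Stat5a (0.46), Stat5b (0.30), Socs3 (0.21) and Socs4 (-0.20) were within 2-fold. The median difference of the 9 genes was 0.54, against -0.02 for all measured genes. The split of all genes moved with the scaling, with 970 higher and 359 lower as above, 771 and 627 on array medians, 1460 and 201 on spike-in probes, and 1885 and 372 with the normexp background correction. Cish and Socs2 were at least 2-fold higher under each of these, Socs5 was within 2-fold on array medians and with normexp, and Socs1 passed 2-fold on spike-in probes (1.20).

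Between the hairpin libraries, the comparison meant to show the effect of losing Eos, none of the 9 genes was 2-fold apart. Over all 17084 measured genes, 10.7% passed 2-fold upwards in the si-Eos-labelled library and 10.1% downwards. Stat5a came closest, 0.98 ± 0.20 higher in the si-Eos-labelled library than in the si-RL-labelled library, and 1912 genes (11.2%) had a difference as high or higher. It passed the limit, by little, on array medians (1.01), on spike-in probes (1.04) and with normexp (1.04). Socs2 (0.58), Socs5 (0.57), Socs3 (0.57), Socs1 (0.41) and Cish (0.38) were also higher in the si-Eos-labelled library, each by about 1.5-fold or less. Stat5b differed by 0.16, Socs7 by -0.29 and Socs4 by -0.39. The third probe of Stat5b gave -0.76 ± 0.21. The median of the 9 genes was 0.41, against 0.04 for all measured genes.

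Set against Treg, 4 of the 9 genes stood 2-fold or more higher in the si-RL-labelled library and 0 lower. Of 17081 measured genes, 7.89% passed that limit upwards in that library and 8.20% downwards. The 4 were Socs2 (1.45 ± 0.20), Cish (1.34 ± 0.20), Socs4 (1.15 ± 0.20) and Socs1 (1.13 ± 0.20), and 571 genes (3.34%) had a difference as high as that of Socs2 or higher. Socs3, at -0.97 ± 0.20, lay just short of 2-fold lower, and Socs5 was at -0.63 ± 0.20. Stat5a (0.42), Stat5b (0.18) and Socs7 (-0.03) moved less. The other Socs4 probes gave 0.85 and 0.63 and the second Socs2 probe 0.67, all short of 2-fold. The median of the 9 genes was 0.42, against -0.01 for all measured genes.

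In the si-Eos-labelled library against Treg, again 4 of the 9 genes stood 2-fold or more higher and 0 lower, but with Stat5a in the place of Socs4. Of 17897 measured genes, 8.85% passed that limit upwards in that library and 10.0% downwards. Socs2 differed by 2.03 ± 0.20, Cish by 1.72 ± 0.20, Socs1 by 1.54 ± 0.20 and Stat5a by 1.40 ± 0.20, and 348 genes (1.94%) reached the value of Socs2. Socs4 (0.76), Stat5b (0.33), Socs5 (-0.06), Socs7 (-0.33) and Socs3 (-0.40) were within 2-fold. The second Socs2 probe gave 0.74. The median of the 9 genes was 0.76, against 0.06 for all measured genes. The last 2 comparisons share the Treg array, so a value peculiar to that array would enter both.

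**Figure D3:**
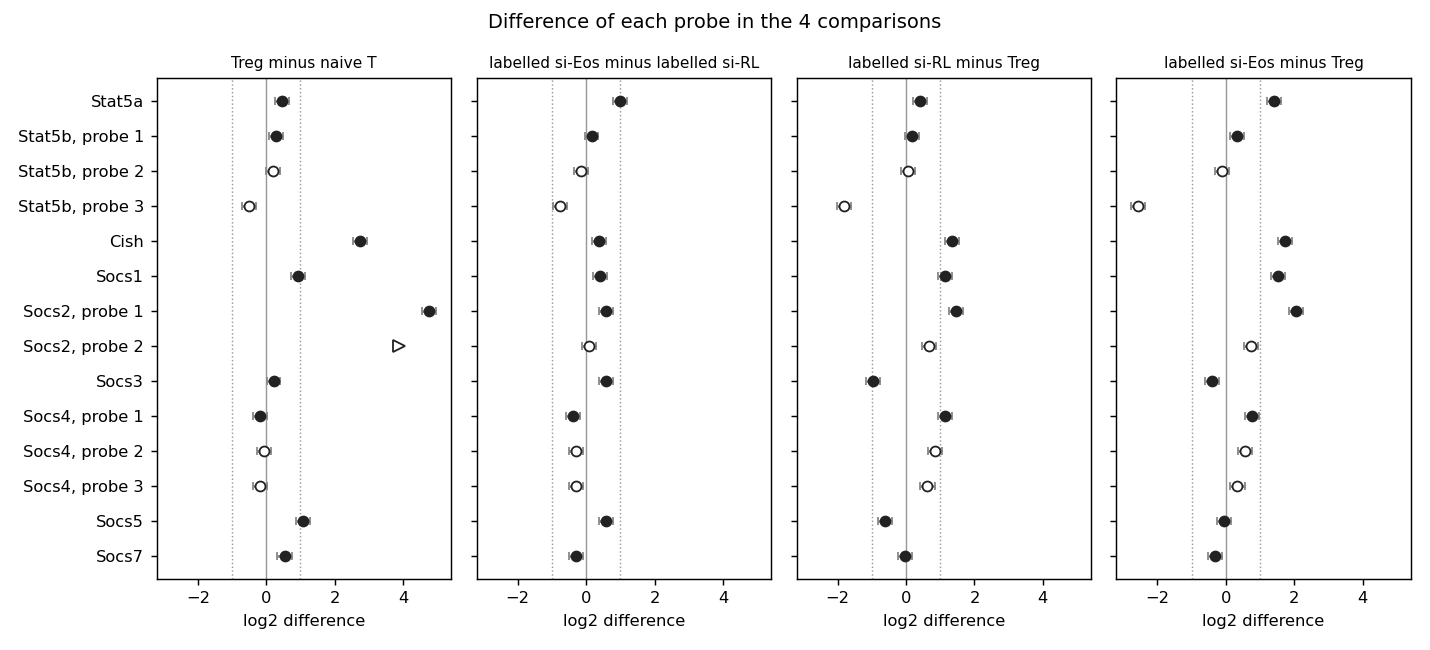
Log2 difference (x axis) of every probe of the 9 genes (rows) in the 4 comparisons (panels), with the scanner's error as bars, filled circles for the probe that stands for the gene, open circles for its other probes, and a triangle for a lower bound. Dotted lines mark 2-fold, and Socs2, Cish, Socs1 and Stat5a lie beyond the upper line in the si-Eos-labelled library against Treg.

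Scaling decided part of the counts against Treg. On the spike-in probes, the median of all genes in the si-RL-labelled library against Treg shifted by -0.40, and the split of all genes went to 627 higher and 3125 lower, against 1347 and 1401 on the 75th percentile. With that scaling only Socs2 was 2-fold higher (1.05), Cish was at 0.94, Socs4 at 0.75 and Socs1 at 0.72, and Socs3 (-1.38) and Socs5 (-1.03) were more than 2-fold lower. Measured from the median of all genes, a distance that such a rescaling does not alter, Socs2 was at 1.46, Cish at 1.35, Socs4 at 1.16, Socs1 at 1.13, Socs5 at -0.62 and Socs3 at -0.97. For the si-Eos-labelled library against Treg the spike-in probes shifted the median by -0.34, and the split was 895 higher and 2888 lower, against 1583 and 1797. Socs2 (1.70), Cish (1.38), Socs1 (1.20) and Stat5a (1.06) were still at least 2-fold higher. Normexp gave 961 higher and 4460 lower for the si-RL-labelled library, and 1446 and 5856 for the si-Eos-labelled library, while Cish, Socs1 and Socs2 were at least 2-fold higher in each and Socs7 was 2-fold lower (-1.03) in the si-Eos-labelled library.

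**Figure D4:**
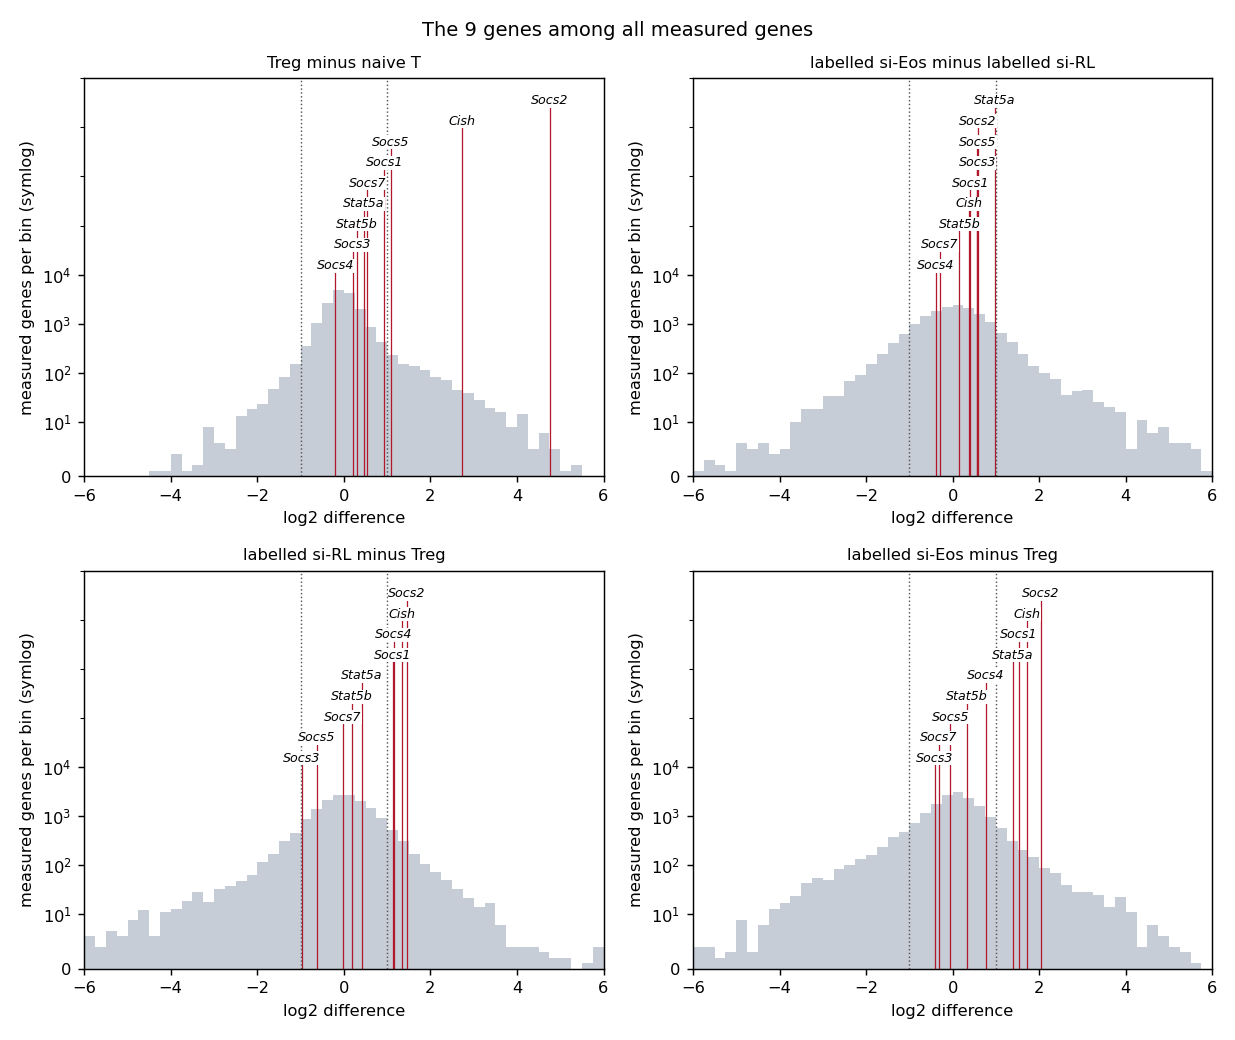
Number of measured genes (y axis, logarithmic above 10) by log2 difference (x axis) in the 4 comparisons, with red lines for the 9 genes, whose heights only separate the names, and dotted lines at 2-fold. Socs2 (4.76) and Cish (2.73) lie in the upper tail of Treg against naive T cells, and between the hairpin libraries all 9 genes lie inside the 2-fold lines.

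The genes most like these in their pattern over the 4 arrays were sought among 4231 genes that spanned at least 2-fold and were well above background on all arrays. The measure was the distance between log2 levels centred on each gene's mean, over 4 arrays only and with no test. Nearest to Cish were Gpr55, a lipid-responsive receptor (0.20), Rragd, a GTPase of amino acid sensing (0.26), and Aurkb, a mitotic kinase (0.47). Nearest to Socs1 were F11r (0.22), Gsdme (0.25) and Wdr60 (0.28), and nearest to Stat5a were Slc6a6 (0.05), Crat (0.14) and Chst14 (0.14). Socs2 had no gene within 0.5, and its nearest were Sdc4, a cell-surface proteoglycan (0.98), Il2ra, the IL-2 receptor alpha chain CD25 (1.32), and Nrn1 (1.64). Within the same distance lay 4 genes for Cish, 36 for Socs1, 80 for Socs5, 192 for Stat5a and 250 for Socs4. The distance was not scaled for a gene's span, which was 2.22-fold for Socs4 and 3.63-fold for Stat5a, against 21.9-fold for Cish and 111-fold for Socs2. These counts therefore cannot tell a rare shape of pattern from a wide span. The nearest genes were Atp11b, Yod1 and Slc26a9 for Socs4 and Alg13, Vps54 and Hlf for Socs5.

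The receptor and kinases that feed STAT5 gave 3 of 7 genes that were 2-fold or more higher and 0 that were lower in Treg against naive T cells (median 0.29). These were Il2ra (5.33), Il2rb, the beta chain that recruits STAT5 (3.82), and Jak3 (1.17), which was at 0.96 on array medians and 0.84 with normexp. CD25, the product of Il2ra, was what the cells were sorted on. Il2ra had a signal of 6972 in the si-Eos-labelled library, 1130 in the si-RL-labelled library, 1228 in Treg and 23.6 in naive T cells. It was higher in the si-Eos-labelled library than in the si-RL-labelled library by 2.34 ± 0.20, although 1 of its other probes gave -0.53, while Cish, Socs1 and Socs2 were within 1.5-fold between these libraries. On the brightest probes Il2ra was the only one of the 7 that was 2-fold apart between the hairpin libraries or, at 2.80, in the si-Eos-labelled library against Treg. None was in the si-RL-labelled library against Treg. Between the hairpin libraries Jak1 was at -0.19 on its brightest probe, but 1 of its other probes gave -1.39. On spike-in probes the counts were 1 higher and 2 lower in the si-Eos-labelled library against Treg and 0 higher and 1 lower in the si-RL-labelled library against Treg, and with normexp they were 3 and 0, and 1 and 0.

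Among 18 genes known to be raised by IL-2 and STAT5 that are not members, 9 were 2-fold or more higher and 0 lower in Treg against naive T cells (median 1.11). Between the hairpin libraries 11 were higher and 2 lower in the si-Eos-labelled library (median 1.21), where 10.7% of all measured genes were higher and 10.1% lower. Foxp3 (4.30), Gzmb, a cytotoxic protease (3.89), Nfil3 (2.88) and Prdm1 (2.45) led the higher ones, and Bcl2 (-1.39) and Pim2 (-1.08) were the lower ones. The higher ones include Bcl2l1 (1.53), whose other probes gave -0.20 and 0.29, and Osm (1.04), which was at 0.68 with normexp. Against Treg, 4 were higher and 1 lower in the si-RL-labelled library (median 0.35), and 9 were higher and 0 lower in the si-Eos-labelled library (median 0.99). Gzmb (3.99), Pim2 (2.11), Myc (2.09) and Bcl2 (1.61) were the higher ones in the si-RL-labelled library, and Foxp3 (-3.43) was the lower one. On spike-in probes the si-RL-labelled library had 4 higher and 4 lower (median -0.05), and with normexp 6 higher and 2 lower. Of all measured genes 3.67% were higher and 18.3% lower there on spike-in probes, and 5.63% and 26.1% with normexp. The Treg markers, 4 of 6 of them lower in the si-RL-labelled library than in Treg, share Foxp3, Il2ra and Tnfrsf18 with that list, and their part in these counts was not tested. Of 5 genes known to be lowered by the pathway, 3 were lower and 0 higher in the si-Eos-labelled library than in the si-RL-labelled library, Tcf7 (-4.53), Il6ra (-2.28) and Bcl6 (-1.43), with a list median of -1.43. In Treg against naive T cells Il7r (-1.87) and Tcf7 (-1.18) were lower and 0 higher (median -0.30). Against Treg, Tcf7 was higher (1.25) and 0 were lower in the si-RL-labelled library (median 0.23), where the spike-in probes gave 0 higher and 1 lower, and 3 were lower and 0 higher in the si-Eos-labelled library (median -1.69).

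Of 10 phosphatases, PIAS proteins and adaptors that are further brakes on the pathway, 0 were 2-fold apart in Treg against naive T cells (median 0.08), 3 between the hairpin libraries, 1 in the si-RL-labelled library against Treg and 2 in the si-Eos-labelled library against Treg. Over all measured genes 7.55%, 20.8%, 16.1% and 18.9% were 2-fold apart in these comparisons, shares at which most of any 10 genes are within 2-fold. Between the hairpin libraries Ptpn6, which encodes the phosphatase SHP-1, was higher (1.30) and Cblb (-1.58) and Pias1 (-1.29) lower in the si-Eos-labelled library, but other probes gave 0.27 and 0.22 for Ptpn6 and 0.72 for Cblb. In the si-RL-labelled library against Treg Pias1 was higher (1.30), although its other probe gave 0.44 and the spike-in scaling turned the count to 0 higher and 3 lower. With that scaling 3.67% of all measured genes were higher there and 18.3% lower. In the si-Eos-labelled library against Treg Pias4 was higher (1.14, but -0.29 with normexp) and Cblb lower (-1.79), although the other Cblb probe gave 0.07. The 8 ubiquitin ligase partners that the SOCS box recruits had medians between 0.07 and 0.53, and none was 2-fold apart in Treg against naive T cells. Ube2f (1.73) and Cul2 (1.42) were higher in the si-Eos-labelled library than in the si-RL-labelled library, each with a probe that went the other way (-0.17 and -0.62). Against Treg, Ube2f was lower in the si-RL-labelled library (-1.43, with 0.51 on 1 of its other probes) and Cul2 was higher in the si-Eos-labelled library (1.08, with 0.41 on its other probe and -0.22 under normexp).

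**Figure D5:**
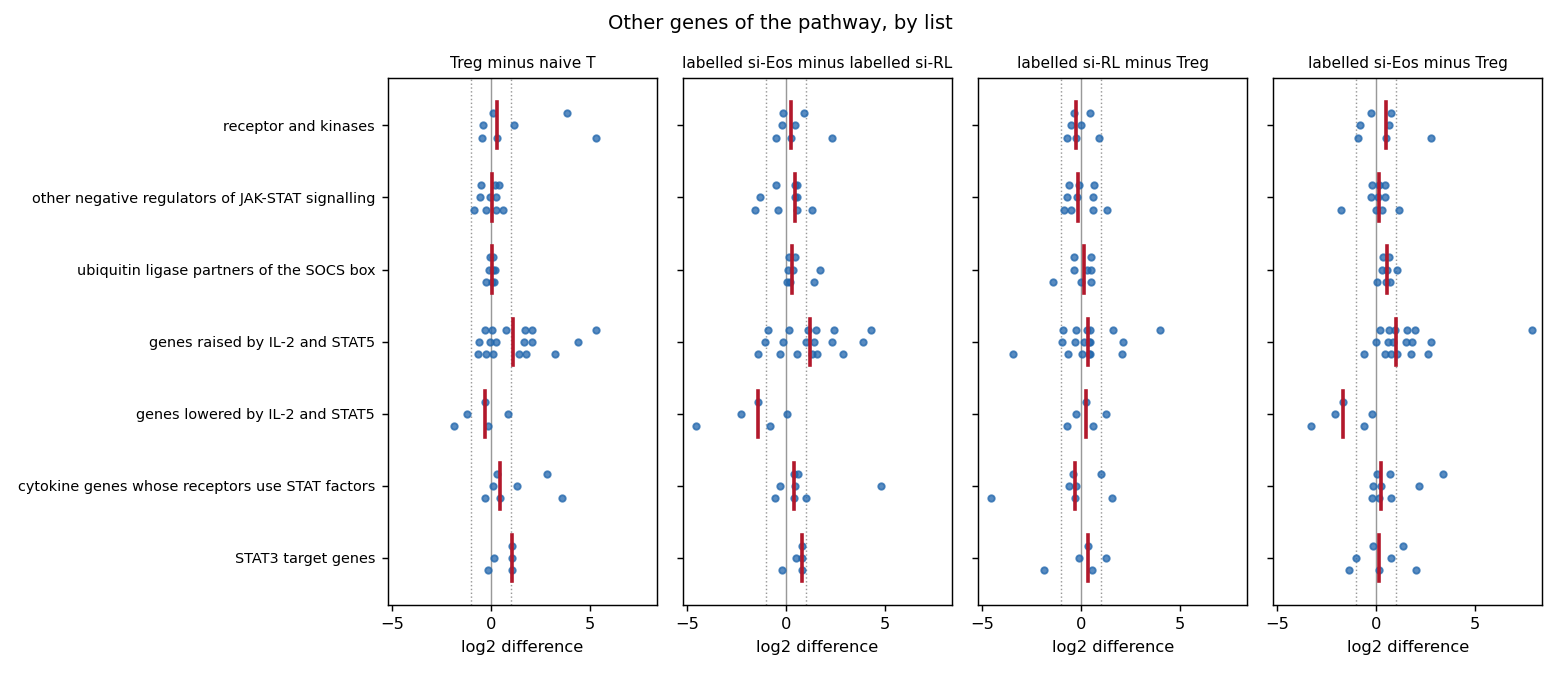
Log2 difference (x axis) of each measured gene (points) of the 7 pathway lists (rows) in the 4 comparisons (panels), with red bars for list medians and dotted lines at 2-fold. Genes raised by IL-2 and STAT5 have medians of 1.11 in Treg against naive T cells and 1.21 between the hairpin libraries.

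Socs3 is known to damp STAT3 signals. Of 7 STAT3 target genes, 5 were measured in Treg against naive T cells, with Bcl3 (1.07), Hif1a (1.05) and Batf (1.04) higher and 0 lower in Treg, and Socs3, another such target, was at 0.21. These 3 were near the limit, and 0 of the 5 passed it on array medians or with normexp. Il21, not well above background in naive T cells, was at least 3.07-fold higher in Treg. Between the hairpin libraries none of the 5 measured was 2-fold apart, and Il21 was at least 2.35-fold higher in the si-Eos-labelled library, since it was not well above background in the si-RL-labelled library. In the si-RL-labelled library against Treg, Hif1a was higher (1.24, but 0.84 on spike-in probes) and Junb, an AP-1 subunit, lower (-1.86), where Socs3 was at -0.97. In the si-Eos-labelled library against Treg, Hif1a (2.04) and Bcl3 (1.35) were higher and Junb lower (-1.35), where Socs3 was at -0.40. Maf was within 2-fold in every comparison on its brightest probe. Other Maf probes gave 2.88 in Treg against naive T cells, and 2.74 and 3.43 in the si-Eos-labelled library against the si-RL-labelled library. Against Treg they gave -1.80 or lower in the si-RL-labelled library, and 0.95, 0.55 and 1.05 in the si-Eos-labelled library. Of 14 cytokine genes on the array, between 7 and 9 were measured in each comparison, with 3 higher and 0 lower in Treg against naive T cells, and 2 higher and 0 lower in the si-Eos-labelled library against the si-RL-labelled library. Against Treg, 2 were higher and 1 lower in the si-RL-labelled library, and 2 higher and 0 lower in the si-Eos-labelled library. With normexp these splits were 0 and 3, and 1 and 3, where those of all measured genes were 5.63% and 26.1%, and 8.09% and 32.8%. The counts leave out genes known by a bound only. In the si-RL-labelled library against Treg, Il10 was at least 15.0-fold and Il21 at least 2.61-fold lower and Il3 at least 2.36-fold higher, and in the si-Eos-labelled library against Treg Il9 was at least 4.06-fold higher. Ifng was higher in the si-Eos-labelled library than in the si-RL-labelled library by 4.78 ± 0.21, and Il10 was at least 158-fold higher there, since it was not well above background in the si-RL-labelled library. The gene for IL-2 had signals of 27.2 in the si-Eos-labelled library, 16.4 in the si-RL-labelled library, 32.2 in Treg and 18.3 in naive T cells, and was within 2-fold in every comparison on its brightest probe, although its second probe gave 1.03 in Treg against naive T cells. These signals were low, with scaled levels of 0.0849, 0.0624, 0.0822 and 0.0605, where the lowest level well above background was 0.0285 to 0.0346. Cish, a target of IL-2 signalling, ranged over 21.9-fold in the same libraries. A link between the 2 genes was not tested, and the medium of the hairpin libraries contained human IL-2.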

How the data were processed

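Per the labels' protocols, total RNA from Trizol extraction was linearly amplified and labelled with Cy3. The deposited scanner files hold linear spot intensity from Agilent Feature Extraction 9.5.3.1 (probe positions on mm8), which per the file headers is background-subtracted and left unscaled between arrays. The value table deposited by the authors holds the same intensity (100% of spots within 0.5%), linear and not centred, with medians of 38.5 for the si-Eos-labelled library, 31.5 for the si-RL-labelled library, 50.5 for Treg and 33.2 for naive T cells. Processed signals were divided by the array's 75th percentile (320, 262, 392 and 303 in that order) and taken to log2 with Python 3.11.15 (numpy 2.4.6, pandas 2.3.3) after 71 to 94 of 43379 flagged spots per array were left out. No non-control spot was saturated, and between 64.0% and 68.3% of probes were well above background. Probes were named through RefSeq accessions (24367), symbols (6307) or synonyms (2425), and 8075 kept the file's name. The probe with the highest mean level stood for a gene. A gene counted as measured if both arrays had that probe well above background, and otherwise a lower bound was taken from the lowest level well above background. The alternatives tried were 4 scalings, the normexp correction (limma 3.58.1 in R 4.3.3, offset 50), the value table, the mean of probes, no filter and other folds. The counting step was tested on simulated data. The members, the 7 pathway lists (66 of 67 genes on the array), the markers and the naming rule were chosen with earlier results of these data known. All 9 members are named, up to 4 list genes each way per list and comparison that were 2-fold apart, the 3 genes nearest in pattern, and Ikzf4 and Foxp3. Il2, Csf3r, Fcer1g, Cd68, Lef1, Ccr7, Jak1, Maf, Bcl2l1, Osm and the genes given by a bound only were named after their values were seen. Some list genes are not reported here. The number of arrays limits the precision.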

Additional observations from a re-analysis of the deposited data

Results flagged for a closer look

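Of 67 genes (the 9 SOCS and STAT5 genes and the list genes measured on all 3 arrays), 1 had differences of at least 2-fold in opposite directions in the hairpin libraries, and it was not a member. Tcf7, a transcription factor of resting T cells and 1 of the 5 genes known to be lowered by IL-2 and STAT5, had a signal of 235 in the si-Eos-labelled library, 4464 in the si-RL-labelled library, 2800 in Treg and 4897 in naive T cells. It was at -3.28 in the si-Eos-labelled library against Treg and at 1.25 in the si-RL-labelled library against Treg on the log2 scale, and its second probe gave -3.19 and 1.44. Scaled to spike-in probes, Tcf7 was at 0.85 in the si-RL-labelled library against Treg, under 2-fold. Il10, which encodes an anti-inflammatory cytokine, was left out of the 67 because it was not well above background in the si-RL-labelled library, and it also moved in opposite directions. Its signal was 1755 in the si-Eos-labelled library, 8.16 in the si-RL-labelled library, 204 in Treg and 13.0 in naive T cells. It was 3.40 higher on the log2 scale in the si-Eos-labelled library against Treg and at least 15.0-fold lower in the si-RL-labelled library against Treg. Neither difference was tested, and the values share the Treg array.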

How the results depend on the processing

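Of the 11 gene-by-comparison differences that were 2-fold apart among the 9 genes, 11 kept their sign under all alternatives run and 7 were 2-fold apart under each scaling, background, source, probe and filter alternative. The source and filter alternatives could hardly move these, since the value table holds the same intensity and each brightest probe was well above background. The probe alternative averaged a gene's probes, and the second Socs2 probe alone gave 0.67 in the si-RL-labelled and 0.74 in the si-Eos-labelled library against Treg. Between the hairpin libraries the count of 0 became 1 (Stat5a) on array medians, on spike-in probes, with normexp and at 1.5-fold. Of all measured genes 11.5%, 12.2%, 6.66% and 22.5% were higher in the si-Eos-labelled library in that order of settings. The shares lower there were 9.52%, 9.02%, 4.87% and 20.9%. At 3-fold the count for the si-RL-labelled library against Treg was 0 in place of 4, and that for the si-Eos-labelled library against Treg was 2 (Cish and Socs2) in place of 4. At that limit 2.59% of all measured genes were higher and 3.35% lower in the si-RL-labelled library. In the si-Eos-labelled library 3.46% were higher and 4.79% lower. The cause of the scaling and background changes was not tested, and the changes with the fold follow from its construction. Of 40 counts of members under alternatives, 34 stayed within 1.5 times, and of 280 counts over the pathway lists, an alternative chosen after seeing the data, 215 did. Each count adds higher and lower genes, so a change of direction can go unseen. The count for the si-RL-labelled library against Treg on spike-in probes stayed within 1.5 times, although Socs2 alone was higher there and Socs3 and Socs5 were lower. Signs of small differences were less stable, as for Stat5b in the si-Eos-labelled library against Treg (-0.78 to 0.91) and Socs3 in the same comparison (-0.74 to 0.22). Scanner error, a median of 0.16 to 0.17 per spot on the log2 scale, leaves out the spread between mice, sorts and amplifications. No paired analysis was possible because each group is 1 array.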
